A study of Mus musculus with 18 samples.

Results

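The genes described here are 10 genes of bone morphogenetic protein (BMP) signalling, taken by symbol from a table of 24116 genes: the Id genes Id1, Id2 and Id3, the inhibitory Smads Smad6 and Smad7, the pseudoreceptor Bambi, the ligands Bmp2, Bmp4 and Bmp8b, and the receptor Bmpr1a. Each symbol matched 1 row. Messenger RNA was sequenced on each day from day 0 to day 5 in cultured organoids of mouse intestine, hollow bodies of epithelium that grow from its stem and progenitor cells. There were 18 libraries, 3 for each day, and each library pooled organoids of 30 wells. All came from C57BL/6 wild-type mice aged 8 weeks, with no transgene or deletion in any group.

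The groups differed by day and medium. Before day 0, organoids were kept in a commercial growth medium, IntestiCult, whose content of BMP inhibitor the labels do not give. From day 0 to day 1 the medium held Noggin at 100 ng/ml, R-spondin at 500 ng/ml and EGF at 100 ng/ml, with 20% Wnt3a-conditioned medium, the ROCK inhibitor Y-27632 at 10 µM and the GSK3 inhibitor CHIR99021 at 3 µM. From day 1 to day 3 CHIR99021 was left out, and from day 3 to day 5 Noggin, R-spondin and EGF remained alone. By the sample titles, replicate 1 came from the organoid line of mouse 1 and replicate 3 from that of mouse 3 on every day, and replicate 2 came from mouse 2 except on days 1 and 2, where it came from mouse 1. Replicate 1 of every day was prepared without DNase, so DNase treatment and replicate number cannot be told apart. The p-values measure the spread between these libraries of 3 lines.

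BMP ligands bind a pair of receptor types at the cell surface, which phosphorylate Smad1, Smad5 and Smad9. These join Smad4 and bind the promoters of target genes, among them Id1, Id2, Id3, Smad6 and Smad7. Id proteins have no DNA-binding region of their own and hold E proteins away from DNA. Smad6, Smad7 and Bambi act back on the pathway as inhibitors. In the intestine BMP signalling is known to be stronger towards the villus and to oppose stem cell renewal in the crypt, and Noggin, a secreted protein that captures BMP ligands, is a standard component of organoid media.

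Levels are given in RPKM, the reads of a gene scaled to its length and to the reads of the library. Library sizes recovered from the values were 43010000 to 53930000 reads, and a library had 9953 to 10758 genes at 1 RPKM or more. A gene was tested where it reached 1 RPKM in at least 3 libraries, which 11111 genes did. Of the 10 genes, 7 passed this filter. Smad6, Bambi and Bmp4 did not, and are described by their values. Epithelial markers were abundant throughout, with a summed level of 2046 to 7048 RPKM over 8 genes, while 9 of 10 mesenchymal markers stayed under 1 RPKM in every library. Messenger RNA of a whole culture was measured, so fewer cells of a type and less RNA per cell cannot be told apart.

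A single library held the highest level of Id1, Id2 and Id3 and of both inhibitory Smads. Day 0 replicate 1, from mouse 1, stood apart from the other 17 libraries in Id3, Id2, Smad6 and Id1 by more than in any other of the 18735 genes with a read: when genes were ranked by the gap on log2(RPKM + 1) between this library and the highest of the others, Id3 came at place 1, Id2 at 2, Smad6 at 3 and Id1 at 4. Smad7 came at place 109. This library was singled out after its values were seen, and its ranks are given as a description with no test. Where a call named below was gained or lost without it, both values are given.

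The promoters of the genes that shared this pattern are shown for the 3 of them found in the RefSeq table of promoters (build GRCm38.p6, that is mm10). Id2 lies at chr12:25093799-25096092, Id3 at chr4:136143822-136145392 and Smad6 at chr9:63953076-64022085. Each sequence is the 250 bases before the transcript start of the table, 5′ to 3′ on the strand of the gene, with motif matches on either strand in capitals. The motifs were GGCGCC, the GC-rich letters that BMP-activated Smads are known to bind, the close form GGAGCC, and the short box GTCT, which Smad4 is known to bind.
Id2, chr12:25096093-25096342, minus strand: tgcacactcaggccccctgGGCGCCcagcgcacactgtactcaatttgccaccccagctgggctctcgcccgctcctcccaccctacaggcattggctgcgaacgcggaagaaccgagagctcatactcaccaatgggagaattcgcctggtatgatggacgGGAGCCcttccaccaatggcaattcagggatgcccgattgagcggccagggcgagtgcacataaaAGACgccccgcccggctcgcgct
Id3, chr4:136143572-136143821, plus strand: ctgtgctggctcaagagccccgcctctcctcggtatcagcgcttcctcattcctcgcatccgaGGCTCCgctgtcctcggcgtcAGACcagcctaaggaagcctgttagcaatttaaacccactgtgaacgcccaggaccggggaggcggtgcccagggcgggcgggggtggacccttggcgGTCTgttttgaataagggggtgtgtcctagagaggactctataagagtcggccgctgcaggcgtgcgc
Smad6, chr9:64022060-64022309, minus strand: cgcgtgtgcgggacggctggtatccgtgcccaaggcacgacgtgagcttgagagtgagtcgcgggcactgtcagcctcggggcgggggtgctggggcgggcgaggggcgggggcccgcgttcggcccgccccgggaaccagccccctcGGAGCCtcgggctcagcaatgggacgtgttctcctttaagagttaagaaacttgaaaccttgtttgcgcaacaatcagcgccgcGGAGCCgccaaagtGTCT
The Id2 window held GGCGCC beginning 231 bases before the start, GGAGCC at 88 and GTCT at 23. The Id3 window held GGAGCC at 187 bases and GTCT at 166 and 68. The Smad6 window held GGAGCC at 102 and 18 bases and GTCT at 4. The transcript start of Smad6 in the table of promoters lies inside the span given for the gene. The end of its window, with the matches at 18 and 4 bases, is therefore within that span. No match overlapped another. Such matches are common: of 32851 promoter windows of the same length, 9.59% held GGCGCC, 26.0% held GGAGCC, 82.9% held GTCT, and 25.0% held GTCT together with GGCGCC or GGAGCC. Windows were found for 6 of the 10 genes. Those of Bmp4 and Bmp8b, which did not follow the pattern, also held GGAGCC and GTCT, and that of Bmpr1a held GGCGCC alone. The windows of Bmp8b and Bmpr1a lay wholly inside the spans of these genes.

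Id1, on chr2:152736251-152737410, encodes the inhibitor of DNA binding most often read as a BMP response gene. Its level at day 0 was 189.5, 9.92 and 20.6 RPKM in replicates 1, 2 and 3. In the same order it was 10.5, 27.6 and 25.2 on day 1, 13.3, 14.5 and 16.7 on day 2, 10.4, 15.5 and 13.2 on day 3, 5.81, 8.95 and 12.00 on day 4, and 12.3, 13.2 and 15.9 on day 5. Day 0 replicate 1 was 12.4 times the mean of the other day 0 libraries and 6.85 times the highest of the other 17, day 1 replicate 2. The 17 other libraries ranged from 5.81 to 27.6 RPKM with a median of 13.2. Libraries of consecutive days overlapped, except that all 3 of day 5 lay above all 3 of day 4, as did 912 of the 11111 genes in either direction (8.21%).

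Id3, a close relative of Id1, moved with it at a lower level. It stood at 156, 2.52 and 6.01 RPKM at day 0, followed by 5.00, 10.2 and 12.5 on day 1, 5.77, 5.85 and 6.02 on day 2, 3.23, 4.86 and 4.12 on day 3, 1.85, 2.75 and 4.11 on day 4, and 2.83, 4.93 and 6.92 on day 5. The high library held 36.6 times the mean of the other day 0 libraries and 12.5 times the highest of the 17. Apart from it, the level lay between 1.85 and 12.5 RPKM. Among these, day 1 replicates 2 and 3 were the highest, above day 0 replicates 2 and 3 and every library of days 2 to 5. Day 3 lay wholly below day 2, which held for a share of 1.61% of genes in either direction, without a call in the test.

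Id2, the other Id gene of the set, was 101, 9.63 and 11.2 RPKM at day 0. It was 8.32, 10.3 and 6.89 on day 1, 3.11, 3.96 and 6.12 on day 2, 2.42, 5.72 and 4.28 on day 3, 2.49, 2.62 and 5.75 on day 4, and 6.12, 8.72 and 4.90 on day 5. Here the other day 0 libraries were also high: day 0 replicate 3 was the highest of the 17, and both were above all libraries of days 2 to 5. The high library was 9.72 times the mean of its 2 fellows. All 3 libraries of day 2 lay below those of day 1, which 6.55% of genes did in either direction.

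The balance between the Id genes also differed in that library. Id3 made up 34.9% of the summed RPKM of Id1, Id2 and Id3 in day 0 replicate 1 and 11.4% to 28.0% in the other 17 libraries. The sum was 447 RPKM against 10.1 to 48.1 RPKM. Id1 was the most abundant of the Id genes in all 18 libraries. Over the 18 libraries log2 levels of Id1 and Id3 had a Pearson r of 0.98, and 0.914 over the 17 without day 0 replicate 1. Id1 and Id2 had an r of 0.889 and, without it, 0.577. These values describe libraries that share lines and days, and have no test.

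Smad6 encodes an inhibitor that acts mainly on BMP signalling. It was 11.7, 0.475 and 0.535 RPKM at day 0 and never above 0.492 RPKM from day 1 on. Day 0 replicate 1 held 1766 of the 2367 reads of Smad6 in all libraries, and 21.9 times the level of the highest of the other 17, which was day 0 replicate 3. From day 1 to day 5 the lowest was 0.115 RPKM, in day 3 replicate 1, and every library rested on at least 16 reads. All day 5 libraries lay below all day 0 libraries, a separation that 54.1% of tested genes showed in either direction. A further fit had no filter on low values and left out the high library. In it the change from day 0 to day 5 was −0.30 on the log2(RPKM + 1) scale (limma adjusted p = 0.0419). Smad6 was there among 2004 of 18735 genes called. With no filter and the high library kept, no comparison of Smad6 passed.

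Smad7 inhibits both the BMP and the TGF-beta branch. It stood at 4.13, 0.556 and 0.480 RPKM at day 0, and then at 0.910, 2.14 and 2.34 on day 1, 0.881, 1.66 and 1.52 on day 2, 0.771, 1.36 and 1.29 on day 3, 0.835, 1.06 and 1.10 on day 4, and 0.590, 1.56 and 1.57 on day 5. Here the other 2 libraries of day 0 were the lowest of all 18, so the high library and its fellows bracketed the whole series. Day 0 replicate 1 was 7.98 times their mean but only 1.76 times the highest of the other 17, day 1 replicate 3.

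**Figure D1:**
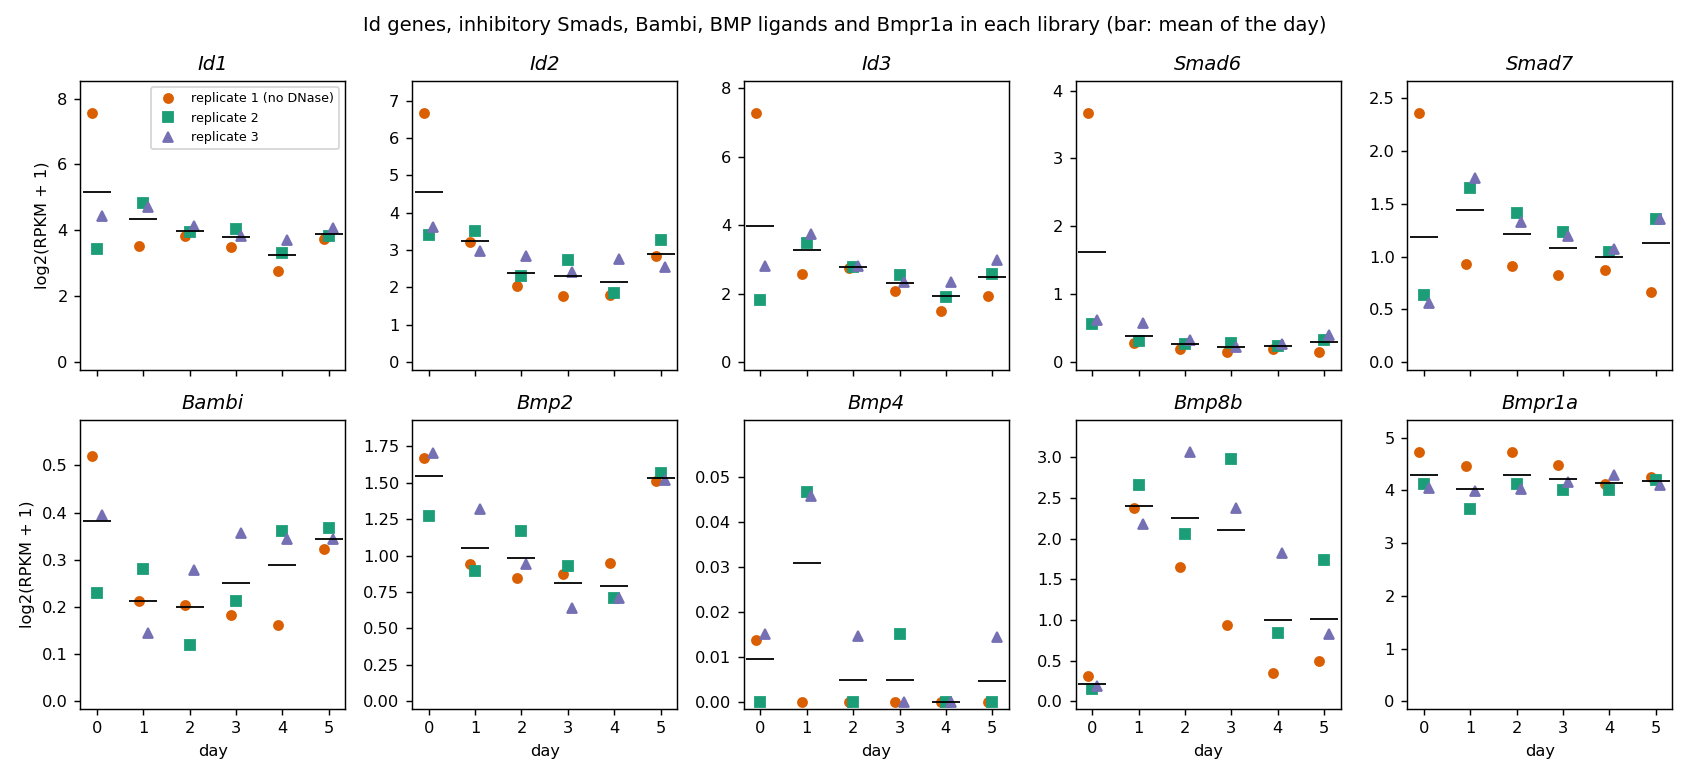
Level of the 10 genes as log2(RPKM + 1) against day, 1 point for each library, with shape and colour for the replicate number and a bar for the mean of the day; each panel has its own vertical scale. Day 0 replicate 1 sits far above the rest for Id1, Id2, Id3 and Smad6, Bmp8b is lowest on day 0, and Bmp2 is high on days 0 and 5.

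Measured over all genes tested, such a rise was uncommon. Day 0 replicate 1 was above the other 17 libraries in 1162 genes (10.5%), and at least 4-fold above both other day 0 libraries in 138 (1.24%). Among the 7 tested genes described here, Id1, Id2, Id3 and Smad7 met both conditions, while Bmp2, Bmp8b and Bmpr1a met neither. In a list of 14 BMP target genes 5 were tested, of which 4 are those just named, by which this library was singled out, and the other is Tbx3, which was also above the other 17 libraries. Of the targets under the filter, Id4 was highest in day 4 replicate 3, at 0.607 RPKM against 0.547 in day 0 replicate 1, and Atoh8 in day 2 replicate 3, at 1.01 against 0.622 RPKM.

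Other genes of the pathway were high in the same library. Smad9, a signal-carrying Smad, was at 2.30 RPKM in it and at most 0.0404 RPKM in the other 17. Skil, a repressor of Smad activity, was at 8.27 RPKM against 1.42 and 1.32 in day 0 replicates 2 and 3, and the target Tbx3, a transcription factor, at 29.0 RPKM against 9.24 and 8.20. Msx1, also a BMP target, reached 1.09 RPKM against 0.0429 and 0.203. Smad1 was at 11.6 RPKM against 6.82 and 7.06. In contrast, Rgmb, which encodes a BMP co-receptor, was at 6.09 RPKM against 35.2 and 37.2. The ligands did not share the rise: none of the 4 tested ligands was above the other 17 libraries in this library, and their median difference was −0.28, against −0.04 over all genes tested.

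**Figure D2:**
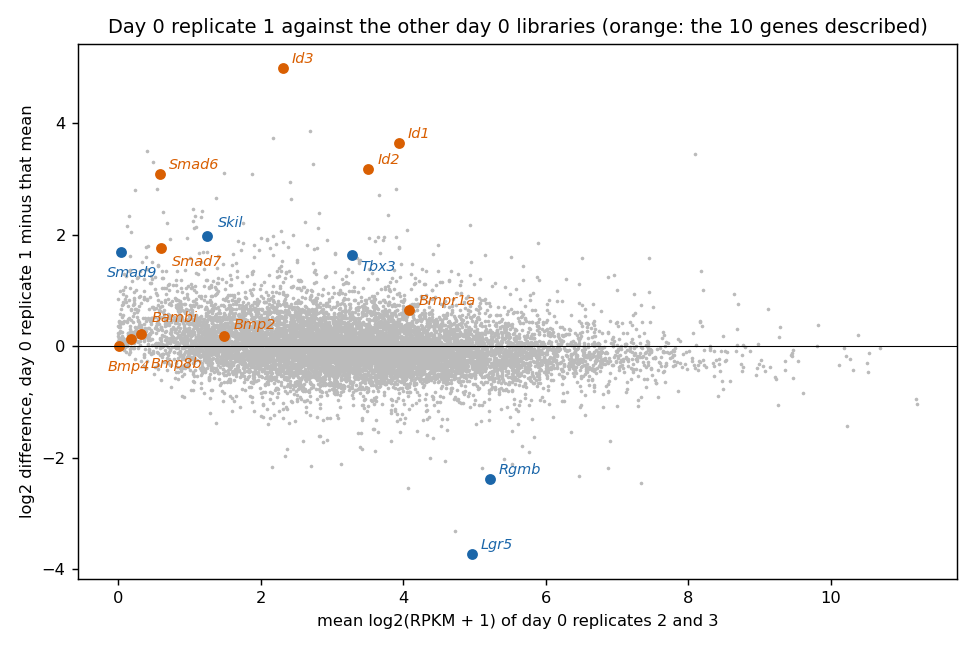
Difference of day 0 replicate 1 from the mean of day 0 replicates 2 and 3 on log2(RPKM + 1) (vertical) against that mean (horizontal); grey points are the 11111 genes tested, orange the 10 genes described, and blue other named genes. Id3 has the largest difference of all, 4.98, followed within the top 12 of all genes by Id1, Id2 and Smad6, while Lgr5 lies at the bottom at −3.74.

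Markers of several cell types moved in the same library. Of 7 intestinal stem cell markers, none was above the other 17 libraries, and their median difference from the other day 0 libraries was −1.54, with a sum of 193 RPKM against 324 and 362. Lgr5, the defining stem cell gene, was at 1.33 RPKM against 28.3 and 32.0. Olfm4, of the same list, lay between the other day 0 libraries, at 125 RPKM against 106 and 140. The rest of the list was below both. Of 7 enteroendocrine markers 4 were above the other 17 libraries, with a sum of 322 RPKM against 108 and 300.1. Enterocyte markers summed to 1211 RPKM against 1217 and 896, and none was above the other 17 libraries. Krt20 was at 91.9 RPKM against 4.30 and 6.81. Anpep was at 71.9 RPKM against 166 and 80.8. Fabp1 was also below both other day 0 libraries, Alpi lay between them, and the rest were above both.

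Signs of handling and of other cells were also measured there. Of 17 tested immediate early genes, known to respond fast when cells are stimulated or dissociated, 11 were above the other 17 libraries; the list summed to 962 RPKM against 640 and 655 in the other day 0 libraries and 141 to 322 RPKM later. Mesenchymal markers summed to 2.24 RPKM against 0.363 and 0.322, of which Pdgfrb made 2.14 RPKM, while Dcn, Lum, Foxl1, Thy1 and Col3a1 were at 0. Endothelial markers summed to 0.379 RPKM against 0.105 and 0.187, with Cdh5, Kdr and Emcn at 0. Immune markers went the other way, with a sum of 2.30 RPKM against 3.58 and 3.52. Nuclear noncoding RNAs that bear on RNA quality summed to 38.5 RPKM against 23.7 and 21.9. The part of these differences in the level of the Id genes was not tested.

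On the later days the same replicate number was at the other end. Replicate 1 was the lowest of its 3 libraries on all 5 days from day 1 to day 5 for Id1, Id3, Smad6 and Smad7. Over all genes tested 6.43% had this order. All 4 combined it with the highest level of all 18 libraries in day 0 replicate 1, as did 54 of the 11111 genes tested (0.486%), which do not include Smad6. Id2 and Bambi were lowest in replicate 1 on 3 of the 5 days, and Bmpr1a was highest there on 4. On days 1 and 2 the titles give mouse 1 for replicate 2 as well, and it was higher than replicate 1: for Id1 27.6 against 10.5 RPKM on day 1 and 14.5 against 13.3 RPKM on day 2, for Smad7 2.14 against 0.910 and 1.66 against 0.881 RPKM. This order was noticed in the values and was not tested. On each of days 1 to 5 the nuclear noncoding RNAs Malat1 and Neat1 were also lowest in replicate 1. Neat1 was at 10.2 RPKM against 57.4 and 58.0 on day 1, and at 1.98 RPKM against 24.3 and 32.7 on day 5. The part of this difference in the order of the other genes was not tested.

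Comparison of the days gave few calls among the Id genes and Smad7. In the F test over the 6 days, limma called 3 of the 7 tested genes, beside 25.3% of all genes: Bmp2 (adjusted p = 0.00513), Bmp8b (adjusted p = 0.0168) and Id2 (adjusted p = 0.0485). Bmp2 was called in 27 of 28 alternative fits, and not in DNase-treated libraries alone (adjusted p = 0.0733). Bmp8b was called in 28 of 29. For Id2 the call was lost in 21 of 29 alternative fits, over which the adjusted p ran from 0.00111 to 0.163. It was lost with median-of-ratios scaling (0.0535), quantile scaling (0.0601) and no filter (0.0945, and 0.0593 also without day 0 replicate 1). It was also lost with the mouse as a factor (0.0574), the replicate number as a block (0.0620) or DNase-treated libraries alone (0.163), and without any of 14 single libraries of days 1 to 5 (0.0520 to 0.0858). Without day 0 replicate 1 alone it was 0.0307. Id1, Id3, Smad7 and Bmpr1a had adjusted p-values of 0.299, 0.413, 0.910 and 0.887. By mean RPKM Id1, Id2, Id3 and Smad6 were highest on day 0 and then on day 1, and neighbouring days in that order overlapped throughout. Without day 0 replicate 1 the day 0 mean was 15.3 RPKM for Id1 and 4.26 RPKM for Id3, below their day 1 means of 21.1 and 9.21 RPKM. For Id2 it was 10.4 RPKM and for Smad6 0.505 RPKM, above their day 1 means of 8.51 and 0.318 RPKM.

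From day 0 to day 1 the direction for Id3 and the call for Smad7 depended on day 0 replicate 1. With all libraries Smad7 changed by 0.25 ± 0.38 (SE) on the log2(RPKM + 1) scale (limma adjusted p = 0.687). Without that library it rose by 0.84 ± 0.26 (adjusted p = 0.0402). Among the 12 libraries treated with DNase, replicates 2 and 3 of each day, it rose by 1.09 ± 0.13 (adjusted p = 0.00111). The DNase-treated set also lacked day 0 replicate 1, so it gave no separate support for the rise. By the titles, both of these fits compared mice 2 and 3 on day 0 with mice 1 and 3 on day 1. Their changes therefore mix day with line. For Id3 the values were −0.70 ± 0.91 (adjusted p = 0.641) with all libraries, 0.96 ± 0.38 (adjusted p = 0.0990) without the library, and, among those treated with DNase, 1.30 ± 0.31 (adjusted p = 0.0195). The change of Id1 was −0.79 ± 0.70, 0.42 ± 0.37 and 0.83 ± 0.29 in the same order, and none passed. Id2 had the same sign each time, at −1.33, −0.28 and −0.27, and did not pass. In this step 17.0% of all genes were called without day 0 replicate 1, and 19.2% in the DNase-treated libraries.

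**Figure D3:**
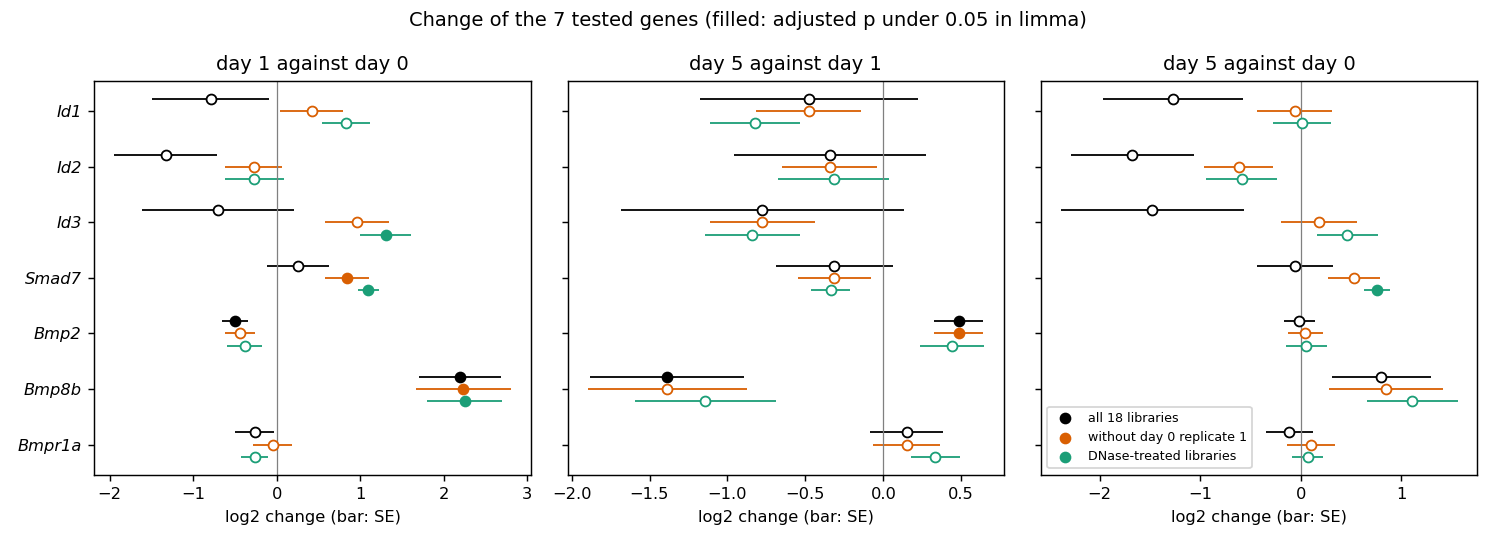
Change of the 7 tested genes on log2(RPKM + 1) with its SE, for day 1 against day 0, day 5 against day 1 and day 5 against day 0; colours give the fit with all 18 libraries, without day 0 replicate 1, and with the 12 DNase-treated libraries, and filled points have an adjusted p under 0.05. Bmp8b is filled at day 1 in all 3 fits, while Smad7 is filled only in the fits without day 0 replicate 1 and Id3 only in the DNase-treated libraries.

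Among the ligands, Bmp8b rose within a day of the change of medium. Bmp8b, on chr4:123104308-123126094, was at 0.236, 0.112 and 0.142 RPKM at day 0. It was 4.18, 5.34 and 3.53 on day 1, 2.14, 3.17 and 7.37 on day 2, 0.919, 6.90 and 4.21 on day 3, 0.269, 0.791 and 2.54 on day 4, and 0.408, 2.34 and 0.768 on day 5. All later libraries were above those of day 0 (41.2% of genes had no overlap between days 0 and 1). Libraries differed widely on day 3, where replicate 1, prepared without DNase, was at 0.919 and replicate 2 at 6.90 RPKM. The rise from day 0 to day 1 was 2.19 ± 0.49 (SE) on the log2(RPKM + 1) scale with limma's adjusted p = 0.00659, in a step where 2 of the 7 tested genes and 18.6% of all genes were called. It passed in each of 30 alternative fits, with adjusted p-values of 0.00026 to 0.0317.

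From day 1 to day 5 Bmp8b fell by 1.39 ± 0.49 (adjusted p = 0.0472), with all 3 libraries of day 5 below all of day 1, as 52.9% of genes were separated in either direction. The call was lost in 16 of 30 alternative fits, 11 of which left out 1 library: any of day 0 (adjusted p of 0.0549 to 0.0582) or of day 1 (0.0643 to 0.130), replicate 2 of day 2 (0.0507) or of day 4 (0.0587), replicate 3 of day 3 (0.0561) or of day 5 (0.115), and replicate 1 of day 5 (0.159). Its level at day 5 was not called against day 0 (0.80 ± 0.49, adjusted p = 0.223). Bmp8a, a close relative of Bmp8b, was between 0.127 and 0.678 RPKM. How reads matching both genes were shared is not given in the sources used here, so the split between them is uncertain.

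Bmp2, the ligand of the set that intestinal epithelium is known to make, was high at the start and at the end. It lies on chr2:133552159-133562896. At day 0 it was 2.18, 1.42 and 2.26 RPKM, and then 0.920, 0.855 and 1.50 on day 1, 0.797, 1.25 and 0.926 on day 2, 0.834, 0.905 and 0.557 on day 3, 0.927, 0.637 and 0.632 on day 4, and 1.86, 1.97 and 1.87 on day 5. Its mean was 1.95 ± 0.46 RPKM (SD, n = 3) on day 0 and 1.90 ± 0.06 on day 5. From there down the order was day 1 at 1.09, day 2 at 0.990, day 3 at 0.765 and day 4 at 0.732 RPKM. Among neighbours in this order only day 5 and day 1 did not overlap, where 52.9% of tested genes were separated in either direction.

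Bmp2 fell by 0.50 from day 0 to day 1 (SE 0.16, limma adjusted p = 0.0382) and rose by 0.48 from day 1 to day 5 (SE 0.16, adjusted p = 0.0342), a comparison in which 2 of the 7 genes and 27.8% of all genes were called. The fall was lost in 13 of 29 alternative fits and the rise in 7 of 29. Among others, the fall was lost with both scalings, a pseudocount of 0.1, DNase-treated libraries alone or only the 2 days compared. The rise was lost with quantile scaling and in DNase-treated libraries alone. Both calls also depended on single libraries. Leaving out replicate 1 or 3 of day 0 moved the fall to an adjusted p of 0.104 or 0.142, and leaving out replicate 1 or 2 of day 1 to 0.110 or 0.140. Without replicate 2 of day 4 or of day 5 it was 0.0504 or 0.0514. The rise to day 5 stood at 0.113 or 0.121 without replicate 1 or 2 of day 1, and at 0.0736 to 0.0861 without any 1 library of day 5. From day 4 to day 5 all libraries rose past those of the day before, where 8.21% of tested genes were separated in either direction. The rise was 0.75 ± 0.16, with limma's adjusted p at 0.0908, where 21 of all genes were called (0.189%).

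Bmp4, which in the intestine is known mainly from the mesenchyme, was close to absent. It lies on chr14:46383525-46390669. It had 0 to 3 reads in each library and 11 reads in all, with a highest level of 0.0329 RPKM in day 1 replicate 2. Expression at a lower level was not detectable at this depth.

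The receptor Bmpr1a, on chr14:34411061-34503336, differed least between libraries, by 2.22-fold from the lowest to the highest. Its level lay between 11.6 and 25.6 RPKM, and its mean between 15.8 RPKM on day 1 and 19.1 RPKM on day 2. The libraries of any pair of days overlapped. No comparison passed, and the changes from day 0 to day 1 (−0.26 ± 0.23) and from day 1 to day 2 (0.26 ± 0.23) were the largest of the 7. Bambi, which resembles a receptor without a kinase, stayed between 0.0861 and 0.435 RPKM, with the highest value again in day 0 replicate 1 and 20 to 111 reads in a library. All 3 day 5 libraries of Bambi were above those of day 1, where 52.9% of tested genes were separated in either direction.

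Beyond these, none of the 7 tested genes was called in limma from day 1 to 2, 2 to 3, 3 to 4 or 4 to 5, where 0.0%, 0.0%, 0.036% and 0.189% of all genes were. Nor was any called from day 0 to day 5, where 24.4% of all genes were. Closest was Id2, at −1.67 ± 0.61 (limma adjusted p = 0.0575). All 3 libraries of day 5 lay below those of day 0 (54.1% of genes were separated in either direction). By line the change was −3.85 in mouse 1, measured against day 0 replicate 1, and −0.130 and −1.05 in mice 2 and 3. In the DNase-treated libraries alone Smad7 was called in this comparison, at 0.76 ± 0.13 (limma adjusted p = 0.0105), among 1312 of 11111 genes called. Over the 6 days it was also called there (adjusted p = 0.00813), among 1398 genes.

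The rest of the pathway was taken from lists chosen with earlier results of these data known, with the 10 genes left out, and counts called in the F test stand beside 25.3% of all genes. Of 13 other BMP ligands, 5 were at 0 in every library and 2 were tested. The F test over the 6 days called Bmp3, which antagonises other BMPs, and not Bmp7. Bmp3 was 0.639, 0.179 and 0.138 RPKM on day 1 and 11.1, 6.55 and 9.78 on day 5, a rise of 2.94 ± 0.64 (adjusted p = 0.00656). The 2 day groups did not overlap, where 52.9% of tested genes were separated in either direction. On day 3, however, replicate 1 was at 11.8 and replicate 2 at 0.227 RPKM.

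Of 10 other receptors and co-receptors 5 were tested and 2 called in the F test, the type I receptor Acvr1 (adjusted p = 0.0206) and the type II receptor Acvr2b (adjusted p = 0.0249). Without day 0 replicate 1 the call of Acvr1 was lost (0.0707) and that of Acvr2b stood (0.0362), and in DNase-treated libraries alone neither was called (0.0987 and 0.0688). Acvr2b fell from 1.68, 2.33 and 2.20 RPKM on day 0 to 0.770, 0.873 and 0.490 on day 1, by 0.84 ± 0.18 (adjusted p = 0.00483). Of 6 other Smads 5 were tested. Smad5 was called over the 6 days (adjusted p = 0.0243), but not without day 0 replicate 1 (0.0960) or in DNase-treated libraries alone (0.0786). Smad1 and Smad5 fell from day 0 to day 1 by 0.68 each (adjusted p = 0.0172 and 0.0116). Without day 0 replicate 1 the call of Smad1 was lost (−0.45, adjusted p = 0.0673). Smad4, the shared partner, was the most abundant at 15.7 to 29.2 RPKM and was not called. Rgmb changed by −1.22 from day 0 to day 1 with all libraries (adjusted p = 0.123) and fell by 2.02 without day 0 replicate 1 (adjusted p = 0.00349), where it was also called over the 6 days (adjusted p of 0.0113 against 0.233).

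Secreted antagonists were few. Of 16 listed, 5 were at 0 in every library, Noggin's own gene Nog among them, and 3 were tested. Nbl1, which binds BMPs, was 0.908, 0.165 and 0.259 RPKM on day 0 and 2.76, 7.98 and 8.52 on day 1. These days did not overlap, where 41.2% of tested genes were separated in either direction. Nbl1 rose by 2.28 ± 0.55 (limma adjusted p = 0.00945). It fell by 1.52 ± 0.55 to day 5 (adjusted p = 0.0489, and 0.0531 without day 0 replicate 1). Over the 6 days its adjusted p was 0.0359, and 0.0511 without that library. Twsg1, the most abundant at 4.15 to 8.51 RPKM, was not called.

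Of 11 intracellular regulators tested, 4 were called over the 6 days, again beside 25.3% of all genes: Pmepa1, Fkbp1a, Tob2 and Ppm1a. Without day 0 replicate 1 Skil was called as well (adjusted p of 0.00610 against 0.578), and in DNase-treated libraries alone Fkbp1a was not (0.0658). Pmepa1, a TGF-beta target that limits Smad signalling, went from 3.34, 1.65 and 1.47 RPKM on day 0 to 9.81, 21.4 and 14.6 on day 1, a rise of 2.35 ± 0.49 (adjusted p = 0.00446), and fell by 2.21 ± 0.49 to day 5 (adjusted p = 0.00716). Fkbp1a, which binds type I receptors, rose by 0.86 and fell by 1.06 in the same comparisons (adjusted p = 0.00478 and 0.00169). Ppm1a, a phosphatase, rose by 0.87 from day 1 to day 5 (adjusted p = 0.00378). Tob2, an antiproliferative protein, fell by 0.89 to day 1 and rose by 0.62 to day 5 (adjusted p = 0.00193 and 0.0143). Tob1, the most abundant, was not called.

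The remaining lists were short. Tbx3, the only other BMP target tested, fell by 1.14 ± 0.40 from day 1 to day 5 (adjusted p = 0.0438). Of the 3 E proteins that Id proteins bind, Tcf3 and Tcf4 fell from day 0 to day 1, by 0.89 and 0.71 (adjusted p = 0.00544 and 0.00188), and Tcf12 was not called. Tcf3 stood at 46.9, 44.6 and 45.4 RPKM on day 0 and at 27.8, 27.8 and 18.04 on day 1. These days did not overlap, where 41.2% of tested genes were separated in either direction. Over the 6 days Tcf3 was called with all libraries (adjusted p = 0.0294) and not without day 0 replicate 1 (0.0907). Of 4 tested TGF-beta and activin genes, the receptor Tgfbr2 rose by 1.11 ± 0.25 to day 1 (adjusted p = 0.00696) and fell by 1.42 ± 0.25 to day 5 (adjusted p = 0.00212), while Acvr1b fell by 0.58 and rose by 0.81 (adjusted p = 0.0124 and 0.00233).

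**Figure D4:**
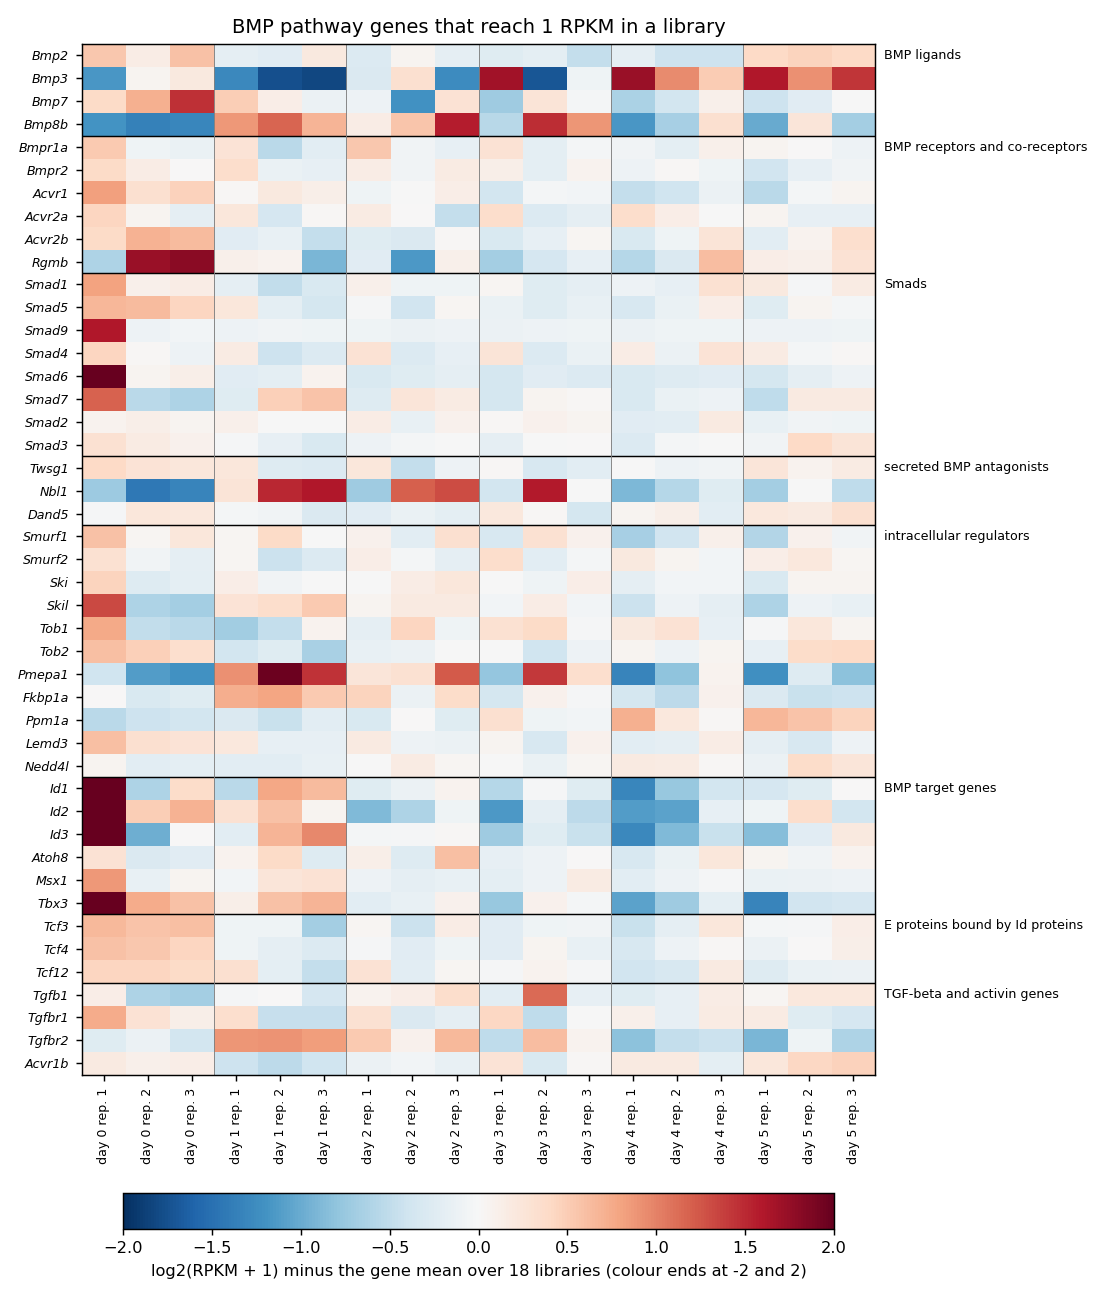
Level of the 45 pathway genes that reached 1 RPKM in a library, as log2(RPKM + 1) minus the mean of the gene over 18 libraries; rows are genes grouped by list, columns are libraries by day, and colour ends at −2 and 2. The column of day 0 replicate 1 is dark red for Id1, Id2, Id3, Smad6 and Tbx3, while Bmp8b, Nbl1 and Pmepa1 are blue in the columns of day 0 and red in those of day 1.

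Genes with the most similar course were found by Pearson r of log2(RPKM + 1) over the 18 libraries, among tested genes with a mean of at least 5 RPKM. Libraries share lines, days and medium, and r is given as a description. Bmp8b was closest to Ano1 (r = 0.972), Slc4a11 (0.970) and Ly6a (0.959), and over the 17 libraries without day 0 replicate 1 to Slc4a11 (0.977), Ano1 (0.971) and Plaur (0.968). Ano1 had a mean of 0.0398 RPKM in day 0 replicates 2 and 3, 10.8 RPKM on day 1 and 2.06 RPKM on day 5.

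Bmp2 was closest to Eno1b (0.866), Eno1 (0.858) and the lactate transporter Slc16a3 (0.842), and without day 0 replicate 1 to Slc16a3 (0.906), the glycolytic enzyme Tpi1 (0.897) and Eno1b (0.887). Slc16a3 had means of 2.11 RPKM on day 1 and 52.2 RPKM on day 5. Smad7 was closest to Jup (0.950), Trim16 (0.853) and Nol4l (0.848), and Bmpr1a to Stag2 (0.923), Shoc2 (0.916) and Pkn2 (0.914). Without day 0 replicate 1 Smad7 was closest to Trim16 (0.939), Actn4 (0.936) and Jup (0.911), and Bmpr1a to Znrf2 (0.926), Spcs3 (0.924) and Stag2 (0.914). For the Id genes the order also depended on that library: Id2 was closest to Pmaip1 (0.931), Ier5 and Cldn7 with it and to Tubb2b (0.933) without it. Id3 was closest to Id1 either way, then to Cdx2 (0.869) and Rnd3 (0.865) with it and to Sprr2a3 (0.859) without it, and Id1 had Id3, Id2 and Bahd1 (0.886) with it.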

How the data were processed

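Messenger RNA was sequenced in 18 libraries, 3 for each of 6 days. The authors deposited RPKM values for 24116 genes, of which 5381 are at 0 in every library. Tools listed in the submitters' processing notes are STAR 2.5.2b, edgeR 3.20.5 and bcl2fastq 2.17, and the build listed is mm10. Not given in the sources used here are the annotation and the handling of strand and of reads shared by genes.

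Library sizes of 43010000 to 53930000 reads were implied by short noncoding RNAs, whose most repeated length-scaled value was taken as 1 read. With these sizes, a length was sought for each of the 10 genes that made its RPKM whole reads in every library (within 0.02 of a read). Such a length was found for each gene, and the read numbers rest on it. Genes were matched to RefSeq by Entrez number (24061 matched). No libraries held identical values, the highest correlation being 0.9865.

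Differences between days were tested, two-sided, with limma 3.58.1 (R 4.3.3; lmFit, then eBayes with its trend option) after a log2 transform of RPKM plus a pseudocount of 1. A single fit held the 18 libraries, with a coefficient per day and a shared spread. The filter was 1 RPKM in 3 or more libraries. Benjamini-Hochberg adjustment ran over the 11111 genes left, and genes under an adjusted p of 0.05 were called. Changes on this scale understate those of low genes. The test was checked on simulated data.

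Alternatives were other scalings (median of ratios, quantile), a pseudocount of 0.1, no filter, a filter at 5 RPKM, array weights, the replicate number as a block, the mouse as a factor, DNase-treated libraries only, only the days compared, and leaving out libraries. No filter combined with leaving out day 0 replicate 1, and likeness without it, were chosen after seeing the data.

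The pairing rests on the titles, in which the same mouse number means the same organoid line. Deviations from the day means had a mean r of 0.092 between libraries of the same mouse (47 pairs, lowest −0.643) and −0.047 between different mice.

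The 10 genes, the pathway lists and the marker lists were chosen with earlier results of these data known. From each pathway list the text names up to 4 genes called in the F test, by smallest adjusted p, and the most abundant, and for each tested gene of the set the 3 of highest likeness. Genes of other lists named for day 0 replicate 1, and Smad1, Skil, Rgmb, Id4, Atoh8, Bmp7, Tcf12, Malat1 and Neat1, were chosen after their values were seen.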

Additional observations from a re-analysis of the deposited data

Results flagged for a closer look

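For 4 genes the line of mouse 1 moved one way, and every other line with libraries of both days the opposite way, in the contrasts given below. These differences were not tested, and each contains day 0 replicate 1. Changes are on the log2(RPKM + 1) scale, per library of a line against the day 0 library of that line.

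From day 0 to day 1, Id1 changed by −3.389 in mouse 1 (2 libraries of day 1) and by 0.277 in mouse 3 (1 library), a difference of −3.666. By the titles, mouse 2 had no library of day 1. For Id3 the changes were −4.26 and 0.9412, a difference of −5.201. For Smad7 they were −1.066 and 1.175, a difference of −2.242. From day 0 to day 5, Id3 changed by −5.357 in mouse 1 and on average by 0.4634 in mice 2 and 3, a difference of −5.82. Smad7 changed by −1.69 and 0.7571, a difference of −2.447. Bmpr1a changed by −0.4777 and 0.06685, a difference of −0.5446. Id1 did not show this from day 0 to day 5, with changes of −3.836, 0.3805 and −0.3587 in mice 1, 2 and 3.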

How the results depend on the processing

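The rise of Bmp8b from day 0 to day 1 passed in all 30 alternative fits. Of 1657 refits of the 7 tested genes, 1581 kept their side of the threshold and, if called, their direction (74 uncalled values changed sign). Of the rest, 59 lost a call, 14 gained one and 3 called values had the opposite sign: Id3 from day 0 to day 1 in DNase-treated libraries (1.30), and Smad7 from day 0 to day 5 with array weights (0.58) and in DNase-treated libraries (0.76). The number of the 10 genes called from day 0 to day 1 was 1 in place of 2 with median-of-ratios or quantile scaling, a pseudocount of 0.1, the 5 RPKM filter or only the 2 days compared. With the 5 RPKM filter only 5 of the 10 genes were tested, and Bmp2 was not among them. From day 1 to day 5 the number called was 1 with the same scalings, pseudocount and filter and with no filter, and 0 in DNase-treated libraries. From day 0 to day 5 it was 2 with array weights, where 7045 of 11111 genes were called. It was 1 in DNase-treated libraries, where 1312 were. Array weights also gave 1 from day 3 to day 4, among 3470 genes called, and 2 from day 4 to day 5, among 1498. With no filter and without day 0 replicate 1, the numbers were 1 in the F test, 1 from day 0 to day 1, 1 from day 1 to day 5 and 1 from day 0 to day 5. Leaving out 1 library gave 2 to 3 in the F test, 1 to 2 from day 0 to day 1, 0 to 2 from day 1 to day 5, 0 to 2 from day 0 to day 5, and 0 in each single-day step after day 1. With the replicate block only the call of Id2 in the F test was lost (adjusted p = 0.0620), as with the mouse as a factor. Over all genes, calls in the F test ranged from 1398 to 9091 and from day 0 to day 1 from 1176 to 4363. Median-of-ratios scaling moved the median of all genes by up to 0.297 and quantile scaling by up to 0.239. The causes were not tested. Smad6, Bambi and Bmp4 were under the filter, and at 11 reads in all, no course of Bmp4 was detectable.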
